A study of Ovis aries with 19 samples.

Results

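The dystrophin glycoprotein complex was followed through 8 of its genes, DMD, DTNA, SNTB1, SNTB2, DAG1, SGCA, SGCB and SGCD, among 28524 gene identifiers measured by RNA sequencing in liver and muscle of female sheep. The genes were taken by name, and all 8 had a row of values. The animals were 5 sheep given testosterone before birth (labelled prenatal T-treatment, sheep 48, 63, 185, 233 and 255) and 5 control sheep (98, 131, 132, 179 and 201). Muscle gave 5 treated and 5 control libraries and liver gave 5 treated and 4 control libraries, since a liver library of control sheep 132 was not analysed here. The labels gave neither the dose and timing of the testosterone nor the breed, the age at sampling or which muscle was taken. Prenatal testosterone excess in sheep is used as a model of metabolic and reproductive disturbance programmed before birth.

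The complex spans the muscle cell membrane and couples the contractile cytoskeleton to the extracellular matrix. Dystrophin binds actin inside the fibre and dystroglycan in the membrane, dystroglycan binds laminin outside, the sarcoglycans stabilise that membrane link, and dystrobrevins and syntrophins attach to dystrophin in the cytoplasm as a scaffold for signalling proteins. In humans, mutations of DMD cause Duchenne and Becker muscular dystrophy, and mutations of the sarcoglycan genes cause limb-girdle muscular dystrophies. Several subunits have paralogues that serve outside striated muscle, such as utrophin for dystrophin and epsilon-sarcoglycan for alpha-sarcoglycan.

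Each library held, in recovered reads, 8741992 to 14331578 in treated muscle, 8455563 to 12760690 in control muscle, 10236610 to 12572001 in treated liver and 10325699 to 16046301 in control liver. Tissue labels matched the defining markers: the summed hepatocyte markers (ALB, TTR, SERPINA1, APOB and FGB) reached at most 132 in muscle and at least 740669 in liver, and the summed fibre markers (ACTA1, CKM, NEB, TTN, CASQ1 and MYBPC1) were at least 536443 in muscle and at most 150.2 in liver. The 50 most abundant genes took 27.9% to 36.7% of reads in treated muscle and 35.7% to 38.6% in control muscle. Reads fell on 17180 to 18029 genes in treated muscle and on 16586 to 17035 genes in control muscle, ranges that did not overlap. Among the liver libraries, that of control sheep 201 had reads on the most genes, 20704, against 16852 to 18289 in the other 8.

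Muscle values are normalized read counts, given for the treated sheep in the order 48, 63, 185, 233 and 255 and for the control sheep in the order 98, 131, 132, 179 and 201. The genes were proposed with results of the treated against control comparison known, so that comparison describes them and tests nothing about them. SNTB1, DMD and SGCB had lower values in every treated muscle than in any control muscle. SNTB1 had the widest gap of the 8, while DAG1, SGCD and SNTB2 had nearly equal group means and SGCA had a higher mean in treated muscle. None of the 8 passed the threshold, an adjusted p of 0.05 in limma over all 12966 genes tested in muscle, where 0.00771% of genes passed, and edgeR also called none of them and 0.00771% of genes.

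SNTB1 encodes beta-1-syntrophin, an adaptor that binds dystrophin and dystrobrevin and carries signalling proteins through its PDZ domain. Its normalized read count was 2744, 3695, 2743, 3605 and 4004 in treated muscle, against 6636, 5979.7, 5009, 5603 and 5765 in control muscle. The highest treated sheep lay below the lowest control sheep, and the values averaged 3358 ± 580 in treated muscle and 5799 ± 591 in control muscle (SD, n = 5 each). The log2 fold change was -0.80 ± 0.14 (SE), a ratio of 0.574 with a 95% interval of 0.464 to 0.711. Its limma adjusted p was 0.104 and its edgeR adjusted p was 0.106, while DESeq2 gave 0.00012 and called it. DESeq2 called 2.21% of the 11704 genes it tested in muscle, and 0.812% as lower. Without any 1 muscle library the log2 fold change stayed between -0.87 and -0.73, with a limma adjusted p from 0.0699 to 0.234.

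Dystrophin itself, DMD, had 1961, 2606, 1764, 2049.5 and 2558 normalized reads in treated muscle, against 3241, 2768, 2635, 3104 and 3151 in control muscle. The treated sheep 63 and 255 came within a short distance of the lowest control sheep, 132, but the groups did not overlap. Overlap was judged on the deposited scaling only, and whether the narrow DMD gap (2606 to 2635) holds under another scaling was not tested. The log2 fold change was -0.46 ± 0.13 (SE; limma adjusted p = 0.189), a ratio of 0.728 with a 95% interval of 0.595 to 0.890. SGCB, the beta subunit of the sarcoglycans, had 2254, 2880.3, 2326, 3003 and 2933 normalized reads in treated muscle, against 3276, 3999.8, 3217, 3364 and 3091 in control muscle. Its groups were separated by the narrow gap between treated sheep 233 and control sheep 201, and its log2 fold change was -0.34 ± 0.13 (SE; limma adjusted p = 0.262). Lower values without overlap were found for these 3 of 8 genes and for 1.53% of all genes tested in muscle, and an unadjusted p below 0.05 with a lower value was found for the same 3 genes and for 7% of all genes. The number with an unadjusted p below 0.05 and a lower value was 2 without control sheep 131, 4 without treated sheep 63, and 1 when all 19 libraries shared a fit. The number with a higher value was 0 in the main fit. It was 1 after TMM rescaling, 1 in DESeq2, and 1 without control sheep 179, control sheep 201 or treated sheep 255.

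The other cytoplasmic partners overlapped between groups. DTNA, alpha-dystrobrevin, had 1608, 2343, 1706, 1471 and 1986 normalized reads in treated muscle, against 2264, 1792, 2171, 1909.8 and 2198 in control muscle. Treated sheep 63 was the highest of all 10 and the log2 fold change was -0.20 ± 0.14 (SE). SNTB2, beta-2-syntrophin, had 300.3, 342, 388, 741 and 372 normalized reads in treated muscle, against 456, 443, 336, 508 and 250.2 in control muscle. Treated sheep 233 stood above all other muscle libraries, the log2 fold change was 0.070 ± 0.24 (SE), and it was -0.15 without that sheep.

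DAG1 encodes the precursor that is cleaved into alpha- and beta-dystroglycan. It had 1979, 2484, 2038, 2901 and 2502 normalized reads in treated muscle, against 2445, 2718, 2241, 2635 and 1903 in control muscle. The groups overlapped over nearly their whole range and the log2 fold change was -0.0078 ± 0.14 (SE), with a 95% interval of -0.31 to 0.30.

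Among the sarcoglycans, SGCA, the alpha subunit, had 1236, 1369, 1384, 1500.1 and 1236 normalized reads in treated muscle, against 1067, 1092, 921, 1339.7 and 1243 in control muscle. The means were 1345 ± 112 in treated muscle and 1132 ± 163 in control muscle (SD, n = 5 each), and the ranges overlapped through control sheep 179 and 201. The log2 fold change was 0.26 ± 0.12 (SE; limma adjusted p = 0.364). SGCD, the delta subunit, had 628, 720.3, 664, 1051 and 681 normalized reads in treated muscle, against 686, 816, 535, 772 and 582 in control muscle. Treated sheep 233 was again the highest, and the log2 fold change was 0.13 ± 0.16 (SE).

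**Figure D1:**
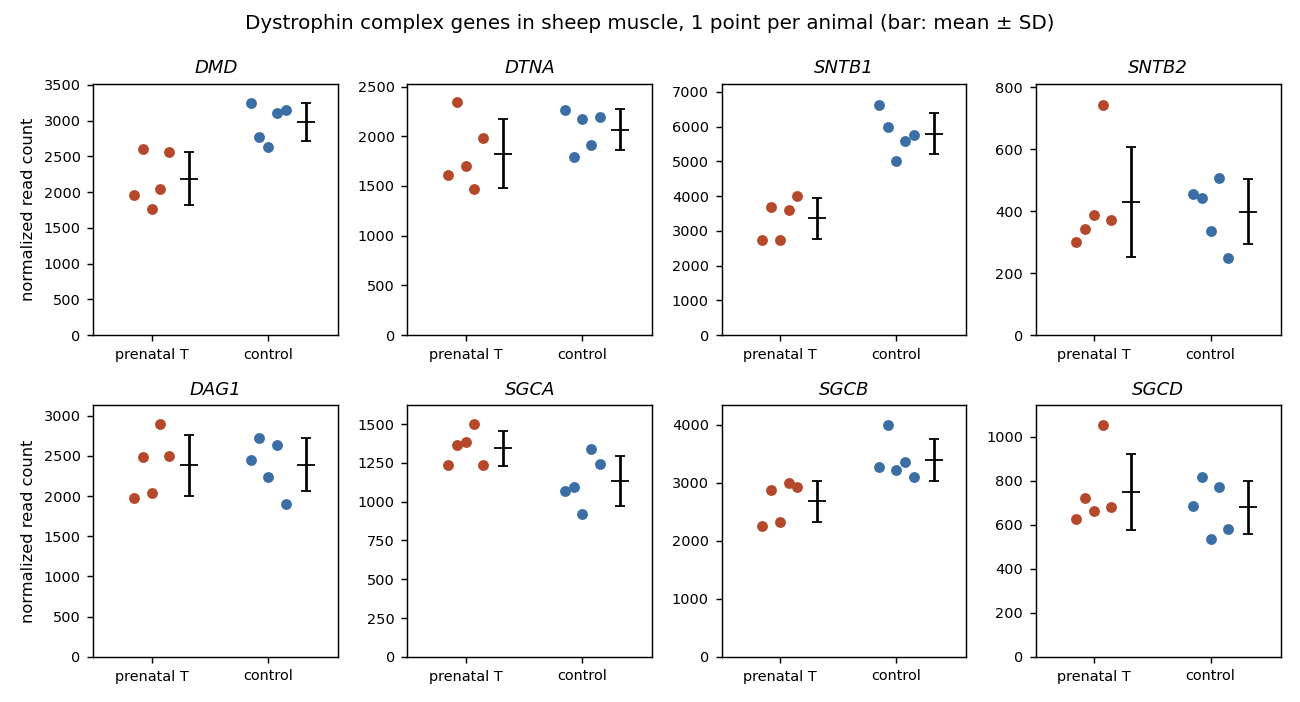
Normalized read counts (y axis, each panel from 0) of the 8 genes in muscle, 1 point per sheep, with treated sheep left of control sheep and a bar for the mean ± SD. In SNTB1 all treated sheep lie at or below 4004 and all control sheep at or above 5009, whereas DAG1, SNTB2 and SGCD overlap and treated sheep 233 is the high point of SNTB2 and SGCD.

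Some proportions among subunits therefore differed between the groups as well, which describes the same values in another form. The ratio of SNTB1 to DMD reads was 1.54 ± 0.14 in treated muscle and 1.95 ± 0.15 in control muscle (SD, n = 5 each), with ranges of 1.40 to 1.76 and 1.80 to 2.16 that did not overlap. For SGCB over SGCA the ratio was 2.00 ± 0.27 in treated muscle and 3.04 ± 0.54 in control muscle, and for SGCB over SGCD it was 3.65 ± 0.55 in treated muscle and 5.07 ± 0.63 in control muscle. SNTB1 over SNTB2 was 8.53 ± 2.56 in treated muscle and 15.4 ± 4.53 in control muscle. Other ratios overlapped between the groups. DAG1 over DMD ranged from 0.953 to 1.42 in treated muscle and from 0.604 to 0.982 in control muscle. DMD over UTRN ranged from 4.51 to 10.6 in treated muscle and from 7.17 to 9.98 in control muscle. DTNA over DTNB and SGCA over SGCE overlapped too. How often ratios of other genes differ as much was not tested. These are ratios of reads that are not corrected for transcript length, so only their differences between samples can be read.

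Within groups, some subunits moved together from sheep to sheep. Each group's mean on the log2 scale was removed. Over the 10 muscle libraries, 22 of 28 pairs of the 8 genes then had a correlation above 0. Of the 28 pairs, 5 passed an adjusted p of 0.05 in a permutation test of Pearson's r (two-sided, 100000 permutations, adjusted over the 28 pairs). The permutations ran over all 10 libraries and not within groups. They made no allowance for the group means removed, so the permutation p-values may be too small. Over all 84052095 pairs of the genes tested in muscle, 49.9% had a correlation above 0 and 0.625% had one of at least 0.82, the lowest of the 5. DMD and SNTB1 had r = 0.82 and rho = 0.85 (adjusted permutation p = 0.0287 and 0.0262). The pair kept r = 0.76 after the 2 libraries farthest from the median in DMD were left out. With the 2 farthest in SNTB1 left out it had r = 0.71. DAG1 was in 3 of the 5 pairs: with SGCB (r = 0.88, rho = 0.92, adjusted permutation p = 0.0175 and 0.0182), with SGCD (r = 0.84, rho = 0.87, adjusted permutation p = 0.0178 and 0.0262) and with SNTB2 (r = 0.84, rho = 0.78, adjusted permutation p = 0.0175 and 0.0487). SGCD and SNTB2 made the fifth (r = 0.89, rho = 0.81, adjusted permutation p = 0.0175 and 0.0487), in which treated sheep 233 was high in both genes.

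With the 2 libraries farthest in the gene named first left out, these pairs had r of 0.85, 0.86, 0.71 and 0.78 in the order given. With the 2 farthest in the gene named second left out, r was 0.84, 0.72, 0.68 and 0.81. The points of such a correlation share the library, its depth and its scaling. Among 12964 other genes tested in muscle, 0.849% followed DMD at least as closely as SNTB1 did, and 1.27% followed SNTB1 as closely as DMD did. For DAG1 the share was 0.201% as closely as SGCB, 0.447% as closely as SGCD and 0.463% as closely as SNTB2. For SGCD, 0.285% followed it as closely as SNTB2 did. Turned around, 0.185% followed SGCB, 0.81% SGCD and 0.386% SNTB2 as closely as DAG1 did, and 0.123% followed SNTB2 as closely as SGCD did. Correlations below 0 were found for DTNA: its r was -0.52 with SGCD and -0.52 with SNTB2 (adjusted permutation p = 0.274 each). With SGCD it was 0.039 after leaving out the 2 libraries farthest in SGCD and -0.44 after leaving out the 2 farthest in DTNA. With SNTB2 it was -0.25 after leaving out the 2 farthest in SNTB2 and -0.22 after leaving out the 2 farthest in DTNA. The r of DTNA with DMD was 0.68 (adjusted permutation p = 0.107).

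**Figure D2:**
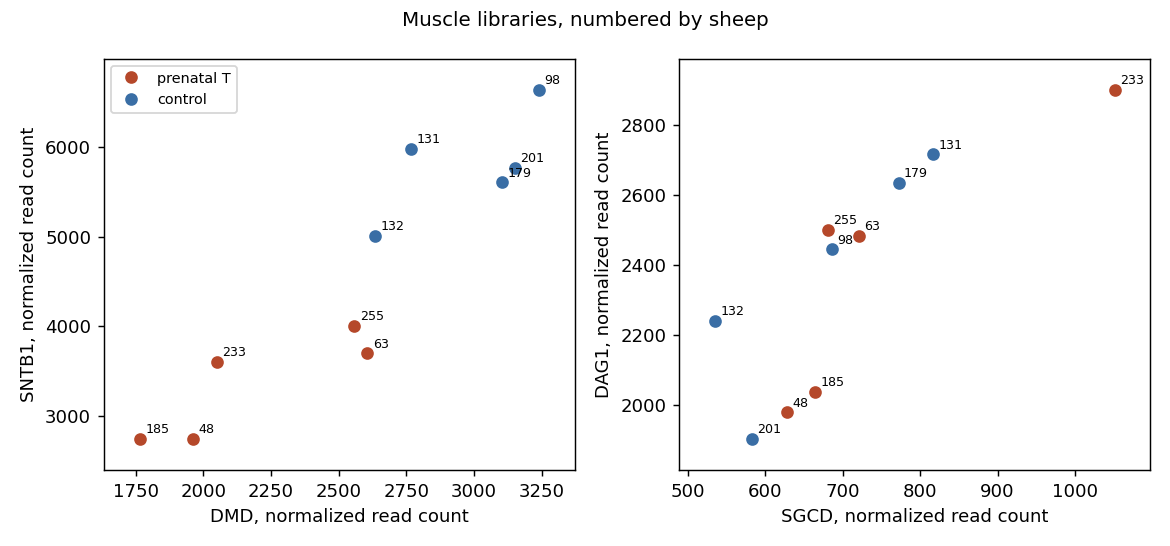
Muscle libraries numbered by sheep, with SNTB1 against DMD on the left and DAG1 against SGCD on the right (normalized read counts on all axes, which do not start at 0). Treated sheep are low in both DMD and SNTB1, with 48 and 185 lowest, whereas DAG1 and SGCD run together through a mixture of treated and control sheep.

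The genes whose log2 values over the 10 muscle libraries were most like those of SNTB1 included IREB2 (Pearson's r = 0.980), NCOA4 (0.966), KLHDC10 (0.965) and PPP3CB (0.964). IREB2 encodes an iron regulatory protein, NCOA4 the receptor for ferritin turnover and PPP3CB a catalytic subunit of calcineurin. For DMD they included VPS35 (0.976), a retromer subunit, XPO7 (0.965), a nuclear exportin, NRDC (0.962), a metalloprotease, and KPNA6 (0.953), an importin. The 8 genes named had lower means in treated muscle, for example 310 normalized reads in treated muscle and 445 in control muscle for IREB2, and 1468 in treated muscle and 1727 in control muscle for VPS35. The measure pools both groups, so their difference enters it, and it is given as a description.

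The remaining subunits and direct partners of the complex are described from a list of 12 genes, of which 9 were tested in muscle. None of the 9 passed the threshold, and none had an unadjusted p below 0.05. Their median log2 fold change was -0.18, against -0.013 over all genes tested in muscle, with 3 above 0 and 6 below. SSPN, sarcospan, averaged 2610.4 ± 763 normalized reads in treated muscle and 3424 ± 698 in control muscle (SD, n = 5 each; log2 fold change -0.42, limma adjusted p = 0.375). NOS1, the nitric oxide synthase that syntrophin anchors, had a log2 fold change of -0.36, UTRN, utrophin, of -0.17 and DTNB, beta-dystrobrevin, of -0.56. The treated and control ranges of NOS1, UTRN and DTNB overlapped. Higher means in treated muscle were found for AGRN, agrin (139.7 against 114.2 normalized reads in control muscle), and SGCE, epsilon-sarcoglycan (92.2 against 85.7).

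**Figure D3:**
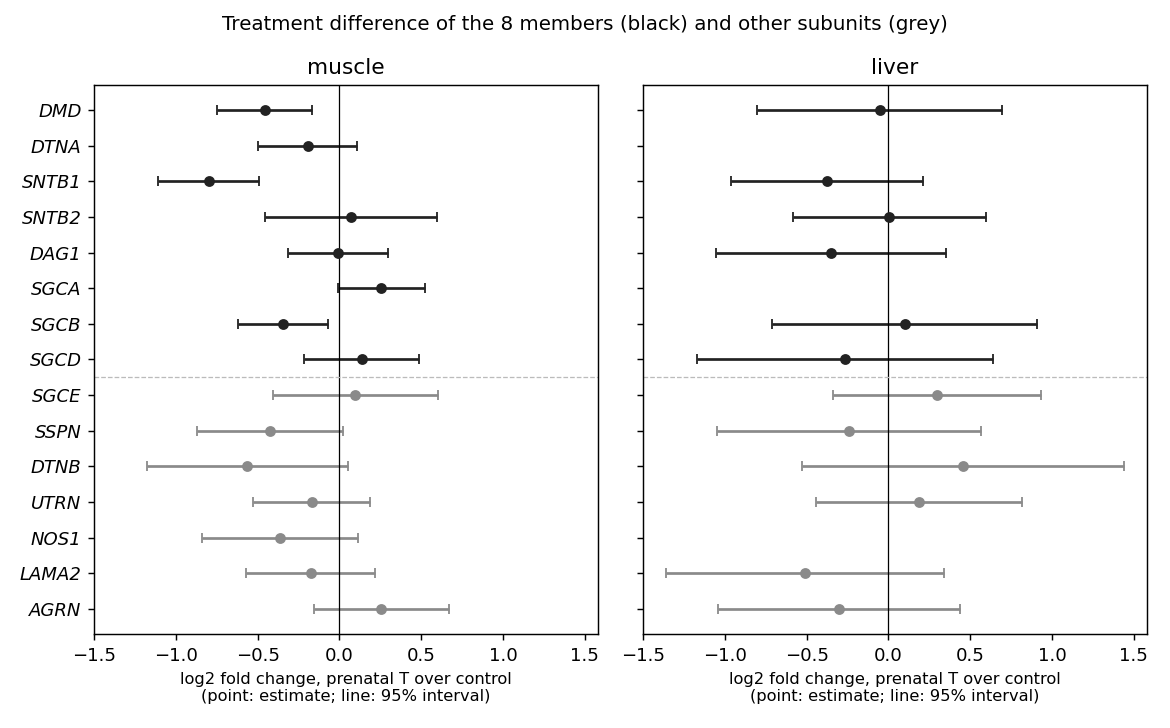
Log2 fold change, treated over control (x axis), with its 95% interval for the 8 genes (black) and the other subunits and partners (grey), in muscle on the left and liver on the right. In muscle the intervals of SNTB1, DMD and SGCB lie below 0, that of SNTB1 from -1.11 to -0.49, and in liver every interval spans 0; genes below the abundance filter of a tissue have no point there.

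The enzymes that build the laminin-binding sugar chain of alpha-dystroglycan showed a median log2 fold change of 0.030 over 17 of 18 genes tested in muscle, and none passed the threshold. The smallest p-values were those of DPM3, a subunit of the enzyme that makes dolichol phosphate mannose, and POMT1, an O-mannosyltransferase. DPM3 averaged 82.8 normalized reads in treated muscle (57.9 to 112) and 56.4 in control muscle (38.7 to 62.9; n = 5 each; log2 fold change 0.53, limma adjusted p = 0.276). POMT1 averaged 333 ± 30.6 in treated muscle and 274 ± 31.2 in control muscle (SD, n = 5 each; log2 fold change 0.28, limma adjusted p = 0.324).

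Of the sarcolemma and costamere partners, 17 of 18 were tested in muscle, with a median of -0.066 and none past the threshold. ITGA7, the laminin-binding integrin chain of muscle, averaged 1512 ± 385 normalized reads in treated muscle and 949 ± 331 in control muscle (SD, n = 5 each; log2 fold change 0.70, limma adjusted p = 0.214). SYNM, synemin, an intermediate filament protein that binds dystrobrevin, averaged 23977 ± 6719 in treated muscle and 33334 ± 2769 in control muscle (log2 fold change -0.53, limma adjusted p = 0.303). The SYNM ranges did not overlap, with at most 30007 in treated muscle and at least 30894 in control muscle.

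The neuromuscular junction list had 7 of 9 genes tested in muscle, all with a log2 fold change above 0, a median of 0.37 and none past the limma threshold. CHRNB1, the beta subunit of the acetylcholine receptor, averaged 869 ± 96.4 normalized reads in treated muscle and 636 ± 92.4 in control muscle (SD, n = 5 each; log2 fold change 0.46). Its limma adjusted p was 0.182 and DESeq2 gave 0.0493. CHRND, the delta subunit, averaged 157 ± 55.2 in treated muscle and 75.7 ± 44.8 in control muscle (log2 fold change 1.19, limma adjusted p = 0.196). RAPSN, rapsyn, which clusters the receptor, ranged from 545 to 707 in treated muscle and from 452 to 528 in control muscle (log2 fold change 0.34, limma adjusted p = 0.200). An unadjusted p below 0.05 with a higher value was found for 4 of the 7 (CHRNB1, CHRND, CHRNE and RAPSN), against 7.37% of all genes tested in muscle.

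Markers of fibres and other cells moved in the same samples. The 6 skeletal fibre markers all had a log2 fold change below 0 (median -0.48, none past the threshold), and their sum ran from 536443 to 1052465 in treated muscle and from 912955 to 1162019 in control muscle. The 6 fast fibre markers (MYH1, MYH2, TNNT3, TNNI2, TNNC2 and MYLPF) were also all below 0 (median -0.26). Their summed ranges, 637035 to 1150751 in treated muscle and 1161262 to 1334551 in control muscle, were separated by a narrow gap. Each of the 6 overlapped between the groups on its own. MYH1, the largest part of the sum, ranged from 237059 to 649586 in treated muscle and from 612656 to 785343 in control muscle. The 4 satellite cell markers were above 0 (median 0.98), summing to 415 to 651 in treated muscle and 242 to 373 in control muscle. Of these, PAX7 averaged 43.5 ± 16.2 in treated muscle and 15.1 ± 7.20 in control muscle (SD, n = 5 each; limma adjusted p = 0.151), and CDH15 averaged 253 ± 27.4 in treated muscle and 179.8 ± 20.8 in control muscle (limma adjusted p = 0.165). DESeq2 gave an adjusted p of 0.0138 for PAX7 and 0.0331 for CDH15.

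Adipocyte markers had a median of -1.07 over 5 tested genes, summing to 1103 to 2406 in treated muscle and 1328 to 2813 in control muscle. FABP4 averaged 264 ± 140.0 normalized reads in treated muscle and 657 ± 394 in control muscle (limma adjusted p = 0.217). The medians were 0.069 for 5 slow fibre markers, 0.021 for 7 fibroblast, -0.27 for 5 smooth muscle, -0.25 for 5 endothelial, 0.12 for 3 macrophage and -0.11 for 4 nerve and Schwann cell markers. No marker of these lists was past the limma threshold in muscle. Fewer cells of a type and less RNA per cell cannot be told apart in such tissue samples, and the part that these shifts, or the higher number of genes with reads in treated muscle, have in the values of SNTB1, DMD, SGCB and the junction genes was not tested.

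Across the 11926 genes tested in muscle that matched an annotated gene, the log2 fold change had a Spearman correlation of -0.14 with genomic span, a description over genes that are not independent. The median was 0.054 for the fifth of genes with the shortest spans and -0.058 for the fifth with the longest. Of the genes taken by name, SNTB1 had -0.80, DMD -0.46, SGCB -0.34, DTNA -0.20 and DAG1 -0.0078. SNTB2 had 0.070, SGCD 0.13 and SGCA 0.26. The spans of these genes are not given here, and the part of span in their values was not tested.

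In liver, the treated and control ranges of all 8 genes overlapped, while they did not for 1.54% of the genes tested. Values are given for control sheep 98, 131, 179 and 201. SNTB1 had 2434, 1889, 1529, 1404 and 2303 normalized reads in treated liver, against 1782, 2821, 3426 and 1989 in control liver. Its log2 fold change was -0.37 ± 0.27 (SE; limma adjusted p = 0.999), with a 95% interval of -0.96 to 0.21 that includes both 0 and the estimate in muscle. DMD had 927, 518, 432, 373 and 1055 in treated liver, against 522, 919, 680.0 and 479 in control liver, and its log2 fold change was -0.053 ± 0.35 (SE). Both groups spread over more than the difference between their means.

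DAG1 ranged from 400.3 to 956 normalized reads in treated liver and from 450.3 to 970.5 in control liver (log2 fold change -0.35 ± 0.32, SE). SGCB ranged from 107 to 328 in treated liver and from 114 to 352 in control liver (0.10 ± 0.37), SGCD from 39.2 to 140.2 in treated liver and from 46.7 to 145 in control liver (-0.26 ± 0.42), and SNTB2 from 215 to 312 in treated liver and from 166 to 372 in control liver (0.0047 ± 0.27). The adjusted p was 0.999 for each in limma, and limma, edgeR and DESeq2 called none of the 6 tested, against 0.00733% of 13640 genes in limma, 0.00733% in edgeR and 0.235% in DESeq2. None of the 6 had an unadjusted p below 0.05 in limma, where 2.17% of genes did with a lower value and 1.82% with a higher value.

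SGCA and DTNA fell under the filter of a mean of 10 and were not tested in liver. SGCA had 7.08, 1.09, 4.12, 3.21 and 4.33 normalized reads in treated liver, against 5.17, 2.91, 4.98 and 4.45 in control liver. DTNA had 0, 1.09, 2.06, 5.35 and 2.17 in treated liver, against 1.29, 8.72, 6.63 and 8.90 in control liver. These rest on 18 and 21 reads in all for SGCA and on 10 and 27 reads for DTNA, treated liver before control liver.

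**Figure D4:**
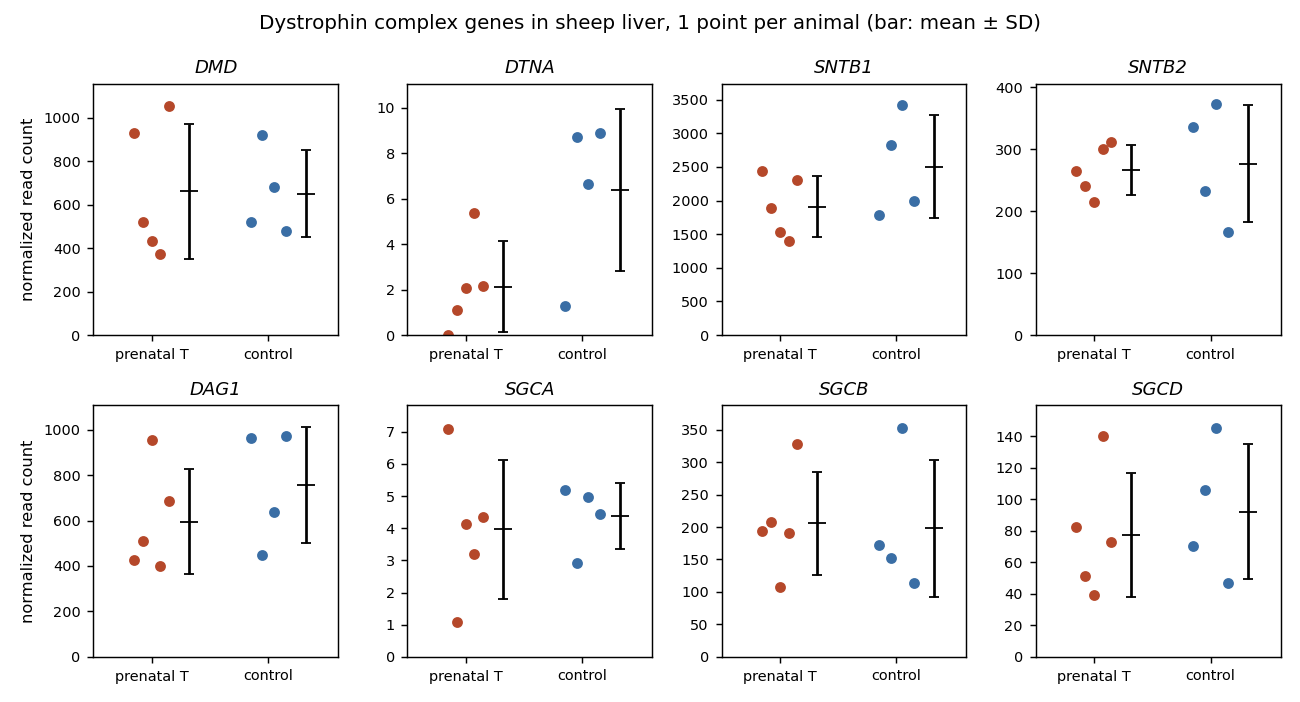
Normalized read counts (y axis, each panel from 0) of the 8 genes in liver, 1 point per sheep, treated left of control, with a bar for the mean ± SD. Treated and control points overlap in every panel, and SGCA and DTNA stay below 9 in every library.

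The muscle effect minus the liver effect was -0.43 ± 0.29 (SE) on the log2 scale for SNTB1, -0.40 ± 0.36 for DMD, -0.44 ± 0.38 for SGCB, 0.35 ± 0.35 for DAG1, 0.40 ± 0.44 for SGCD and 0.065 ± 0.37 for SNTB2. None of these differences passed the threshold in limma over 11697 genes, and the lowest adjusted p was 0.973. The differences came from 1 fit of all 19 libraries that did not use the pairing of tissues by sheep. The related lists in liver had no gene past the threshold, with medians of 0.19 for 7 other subunits, -0.055 for 18 glycosylation genes, -0.13 for 15 sarcolemma partners and -0.10 for 4 junction genes, against 0.0032 for all genes. SYNM averaged 119.8 ± 55.7 (SD, n = 5) in treated liver and 202 ± 68.4 (SD, n = 4) in control liver (limma adjusted p = 0.999).

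The fibre and adipocyte markers tested in liver had log2 fold changes below 0, with none past the threshold. All 4 skeletal fibre markers tested had a log2 fold change below 0 (median -0.79). For 1 of the 4 the unadjusted p in limma was below 0.05, against 2.17% of all genes tested in liver with a lower value. The sum of the 6 ran from 52.5 to 96.7 in treated liver and from 94.4 to 150.2 in control liver, ranges that overlapped. Among them NEB, nebulin, averaged 16.1 ± 7.30 normalized reads (SD, n = 5) in treated liver and 54.9 ± 11.9 (SD, n = 4) in control liver, with ranges that did not overlap (log2 fold change -1.80, limma adjusted p = 0.835). All 4 adipocyte markers tested were below 0 (median -1.07). For 3 of the 4 the unadjusted p in limma was below 0.05, against the same 2.17% of all genes. The sum of the 6 ran from 102 to 302 in treated liver and from 220 to 519 in control liver, ranges that overlapped. The medians were 0.0031 for 5 hepatocyte, 0.040 for 7 fibroblast and stellate cell, -0.36 for 5 smooth muscle, -0.10 for 5 endothelial, 0.12 for 4 macrophage and 0.18 for 2 nerve and Schwann cell markers, and 1 fast fibre marker tested had -0.84. The part of these shifts in the liver values of SYNM and the 8 genes was not tested.

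The 8 genes were chosen by name as parts of a muscle membrane complex, so higher values in muscle were foreseeable. The list left out the paralogues UTRN, DTNB and SGCE, given below, so the counts describe the list only. The difference between the tissues was tested in each arm on its own, after scaling both tissues of that arm jointly. Jointly scaled reads of treated and control sheep are therefore not on a common scale and are not compared with each other. SGCA and DTNA averaged below 10 in liver and entered that test only through muscle, so they are described and not counted. Of the 6 genes that averaged at least 10 in both tissues, DMD, DAG1, SGCB, SGCD and SNTB1 were higher in muscle in both arms, 5 of 6 in each. Among all genes with such means, 36% of 11770 were higher in muscle in treated sheep and 33.3% of 11616 in control sheep. The exception was SNTB2. It averaged 425 ± 177 jointly scaled reads in treated muscle and 285 ± 40.6 in treated liver (SD, n = 5 each; log2 fold change 0.51 ± 0.23, limma adjusted p = 0.0677). In control sheep SNTB2 averaged 369 ± 96.6 in muscle (SD, n = 5) and 298 ± 99.9 in liver (SD, n = 4; log2 fold change 0.33 ± 0.28, limma adjusted p = 0.306, 95% interval of -0.27 to 0.93). With the sheep as a block, which pairs both tissues of an animal, SNTB2 passed in treated sheep (limma adjusted p = 0.0413), and it also passed without treated muscle of sheep 48 (0.0482).

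DTNA and SGCA had the widest tissue differences of the 8. DTNA averaged 1805 ± 343 jointly scaled reads in treated muscle and 2.30 ± 2.20 in treated liver (SD, n = 5 each), a ratio of summed reads of 779 with a 95% counting interval of 423 to 1625. The liver side of it rests on 10 reads, 5 of them from sheep 233, and without that library the DTNA mean in treated liver was 1.41 and the ratio 1249. In control sheep the ratio was 307 with an interval of 211 to 466. SGCA averaged 1332 ± 114 in treated muscle and 4.23 ± 2.28 in treated liver, a ratio of 320.3 (203 to 541) in treated sheep and 215 (140.2 to 347) in control sheep. Both had few reads in every liver library, and the intervals cover counting error only.

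SNTB1 had the smallest difference among the 5. It averaged 3326 ± 577 jointly scaled reads in treated muscle and 2033 ± 440.4 in treated liver (SD, n = 5 each; log2 fold change 0.72 ± 0.19, limma adjusted p = 0.00434). In control sheep it averaged 5363 ± 518 in muscle (SD, n = 5) and 2691 ± 756 in liver (SD, n = 4; log2 fold change 1.03 ± 0.21, limma adjusted p = 0.000648). The muscle ranges, 2702 to 3963 in treated and 4671 to 6107 in control sheep, lay wholly above the liver range of the same arm, 1538 to 2573 in treated and 1974 to 3591 in control sheep.

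The other 4 had wider differences. The log2 fold changes of muscle over liver were 1.73 ± 0.27 in treated sheep and 2.02 ± 0.20 in control sheep for DMD, 3.67 ± 0.24 and 4.00 ± 0.27 for SGCB, and 3.26 ± 0.30 and 2.75 ± 0.29 for SGCD, treated sheep before control sheep. DAG1 was 3.88-fold higher in muscle in treated sheep (95% interval of 2.72 to 5.51) and 2.82-fold higher in control sheep (1.96 to 4.06). The largest limma adjusted p among the 4 was 0.000109, that of DAG1 in control sheep. As an example of the levels, DMD averaged 2166 ± 370.5 jointly scaled reads in treated muscle and 699.7 ± 311 in treated liver (SD, n = 5 each).

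Paralogues of the same subunits differed in direction. In treated sheep muscle was lower than liver for UTRN (321 ± 80.3 jointly scaled reads in muscle and 889 ± 331 in liver; SD, n = 5 each; log2 fold change -1.43, limma adjusted p = 0.000149), DTNB (21.7 ± 5.99 in muscle and 138 ± 66.1 in liver; -2.50, limma adjusted p = 2.6e-05) and SGCE (91.3 ± 27.1 in muscle and 169 ± 25.0 in liver; -0.91, limma adjusted p = 0.00338). In control sheep the log2 fold changes were -1.18 for UTRN (limma adjusted p = 8.58e-05), -1.59 for DTNB (0.0025) and -0.83 for SGCE (0.0244). The control call for SGCE was lost without liver of sheep 179 (limma adjusted p = 0.0613) and without muscle of sheep 98 (0.0563) or 131 (0.0606). Muscle thus had the higher level of dystrophin and liver that of utrophin, and likewise muscle of alpha-dystrobrevin and alpha-sarcoglycan and liver of beta-dystrobrevin and epsilon-sarcoglycan.

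SSPN and LAMA2 were also higher in muscle in both arms. SSPN had a log2 fold change of muscle over liver of 4.55 in treated sheep and 4.62 in control sheep, and LAMA2, the laminin chain that dystroglycan binds, of 5.31 in treated sheep and 4.86 in control sheep. NOS1 had 4132 reads in treated muscle and 4 in treated liver, and 4087 reads in control muscle and 21 in control liver, where its mean of 5.62 normalized reads was 1.18 without sheep 201. AGRN, agrin, a nerve-derived and matrix proteoglycan that binds dystroglycan, was lower in muscle in control sheep (log2 fold change -0.95, limma adjusted p = 0.0136), and in treated sheep had a log2 fold change of -0.27 (limma adjusted p = 0.350).

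**Figure D5:**
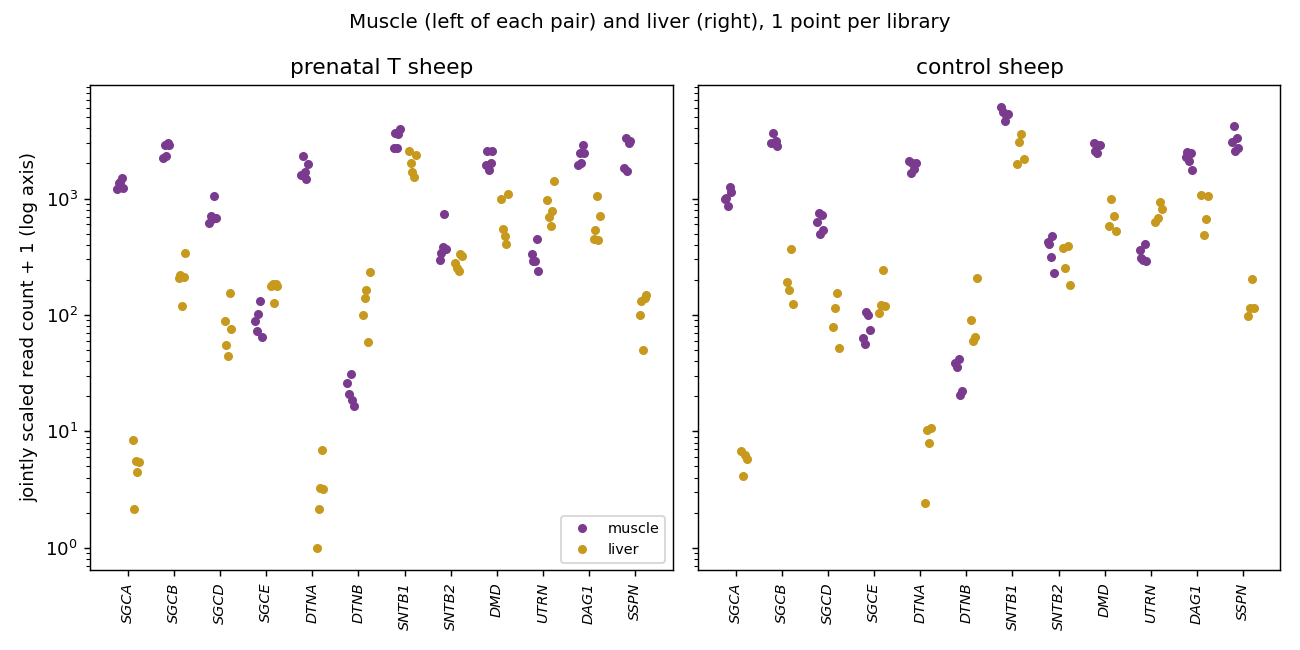
Jointly scaled read counts plus 1 (log y axis) of subunits grouped by family (x axis), 1 point per library, muscle left of liver in each pair, for treated sheep (left panel) and control sheep (right panel). The panels were scaled separately, so levels are not compared between them. SGCA and DTNA are near the bottom of the axis in liver, SNTB2 overlaps between tissues, and SGCE, DTNB and UTRN lie higher in liver.

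Related genes are counted where they averaged at least 10 in both tissues. Sarcolemma and costamere partners were higher in muscle for 10 and lower for 2 of 15 in each arm, and junction genes were higher for 4 of 4 in treated sheep and 3 of 4 in control sheep. The enzymes of dystroglycan glycosylation were split, with 7 higher and 4 lower of 17 in treated sheep and 6 higher and 4 lower of 17 in control sheep. Among all genes with such means, 29.1% in treated sheep and 30.1% in control sheep were lower in muscle. LARGE2, a glycosyltransferase, entered the test only through liver and averaged 5.07 jointly scaled reads in treated muscle and 84.8 in treated liver, and 2.97 in control muscle and 126 in control liver.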

How the data were processed

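Total RNA of liver and muscle was made into TruSeq libraries, per the labels' protocols. Per the submitters' processing notes, Trimmomatic, STAR and featureCounts 1.6.1 were used. Build, annotation and strand setting are not given in the sources used here, so no coordinates are printed and a gene cannot be told apart from an overlapping antisense gene. Transcript lengths and sequences were not used here, and levels of different genes are not compared.

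The deposited signal is a normalized read count, a count that the authors divided by each library's size factor within its tissue. This was read from the values: 100% of them were whole reads within 0.01 read after division by what 1 read was worth, and the scaling matched medians of ratios within a tissue to a relative 5.03e-10. All 36 pairs of libraries of a group differed beyond sampling noise (lowest chi-square per degree of freedom, 21.0), so each counted as its own sample.

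The main test was limma 3.58.1, run in R 4.3.3 on log2(value + 1) for genes averaging at least 10 (mean-variance trend, Benjamini-Hochberg adjustment over all genes, threshold 0.05). Fold changes are on that scale and understate low genes. Each tissue was fitted on its own for the treatment comparison. The muscle effect minus the liver effect came from 1 fit of all 19 libraries without a sheep block. Tissues were compared within an arm after joint TMM scaling of the recovered reads. For recovered reads, edgeR 4.0.16 and DESeq2 1.42.0 served as alternatives. The procedure was run on simulated counts with known changes, drawn with the same spread for every gene and without variation shared by a sheep. That setting is simpler than these data, and its outcome is not used here. Intervals of read ratios are exact and cover counting error only, and reads carried no molecular identifiers.

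The sheep number pairs the tissues of an animal. Deviations from group means correlated at a median of 0.177 within a sheep (lowest 0.103) and -0.0172 between sheep, over 9 sheep.

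The 8 genes, the gene lists and the markers were chosen with earlier results of these data known. Named genes were the 8, in each list those past the threshold and the 2 with the smallest p per tissue, and the 5 most like SNTB1 and DMD. Some genes under this rule are not reported here. Other genes that belong to the complex or its paralogues, or that complete a count, were named after their values were seen. Marker lists are given by counts, medians and sums, with few members named. Alternatives were pseudocounts, filters, scalings, array weights, other tools, a fit over both tissues, with or without a sheep block, and leaving out single libraries. The pair correlations, read ratios, genomic spans and counts over genes averaging at least 10 in both tissues were added after seeing the data.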

Additional observations from a re-analysis of the deposited data

Results flagged for a closer look

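Within a group of 4 or 5 sheep, a value was looked at again when its gap to the nearest other sheep was a large share of the group's range, a rule that chance meets in about 1 of 20 groups. Of 82 groups tested for the 8 genes and the named genes of the related lists, 9 met it.

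Treated muscle of sheep 233 met it in both SGCD and SNTB2. It had 1051 normalized reads of SGCD (628 to 720.3 in the other treated muscles) and 741 of SNTB2 (300.3 to 388). Without this sheep the log2 fold change in muscle was 0.0059 for SGCD, against 0.13 with it, and -0.15 for SNTB2, against 0.070 with it. In control muscle of sheep 98 DPM3 was low, at 38.7 against 59.2 to 62.9 in the others.

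Liver held the other 6. Treated sheep 185 had 113 normalized reads of SGCE (166 to 175 in the other treated livers), 304 of DOLK (184 to 216) and 354 of POMT2 (142 to 187). Treated sheep 255 had 217 of SYNM (81.4 to 112). Control sheep 179 had 229 of SGCE (93.8 to 112 in the other control livers), and control sheep 98 had 342 of DOLK (257 to 269).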

How the results depend on the processing

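None of the 8 genes passed the threshold in muscle or liver in the limma and edgeR settings, and the count was 0 without any 1 library. DESeq2 called 1 of the 8 in muscle (SNTB1), 1 gene of the related lists in muscle (CHRNB1), and 259 and 32 genes of all tested in muscle and liver, against 1 and 1 in limma. The count over all genes in muscle was 0 with a pseudocount of 0.25, 0 with a mean of at least 50, and 0 to 4 without 1 library. In liver it was 0 with a mean of at least 50, 2 with array weights and 9 in 1 fit of all libraries. CHRNE in liver had a log2 fold change of -0.13, from -0.36 to 0.024 without 1 library, and changed sign without control sheep 201. The cause was not tested.

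With the sheep as a replicate block, the pairing left 0 of the 8 called in muscle and 0 in liver, and gave 1 and 9 genes over all in muscle and liver. It called 8 of the 8 as higher in treated muscle than treated liver and 7 in control sheep. Over all genes it called 10175 in treated and 9450 in control sheep, higher and lower together. Without the block, 5158 genes were called higher and 4819 lower in muscle, of 14279 tested in treated sheep. In control sheep 4689 were called higher and 5021 lower, of 14117. The block changed no other call of the 8 genes or of the named genes. Without 1 library the tissue counts were 7 to 8 in treated sheep and 7 to 7 in control sheep. These counts include SGCA and DTNA, which entered the tissue test only through muscle, and 5 of the other 6 genes were called in each arm with all libraries. SGCA and DTNA rest on 10 to 27 reads a group in liver and were not tested there. With the deposited values in place of joint scaling, the median over all genes moved to 0.18 from 0.066 in treated sheep and to 0.19 from -0.040 in control sheep. SNTB2 then passed in treated sheep (0.62, limma adjusted p = 0.0304) and SGCE was lost in control sheep (-0.61, limma adjusted p = 0.0877).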
